A study of Danio rerio with 114 samples.

Results

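The proteasome subunit genes of zebrafish were followed through oogenesis, egg activation and early embryogenesis. They were chosen by symbol: the Ensembl symbol had to begin with psm, a letter from a to g and a digit, and the gene had to reach at least 10 CPM (counts per 1000000 gene-assigned reads) in at least 3 libraries of any one period and library type. Of 31466 gene IDs in the count tables, 57 carried such a symbol and 47 passed the level rule, which 11387 genes passed in all. The 47 genes comprised 8 of the 20S alpha ring, 7 of the beta ring, 7 of the 19S ATPase ring, 12 non-ATPase 19S subunits, 2 19S chaperones, 3 20S assembly chaperones, 5 activators or inhibitors, the immune-type beta subunit psmb10, and 2 proteins (psmc3ip and psme3ip1) that share the symbol pattern but only interact with a subunit or an activator. Where a symbol stood for 2 gene IDs, the last digits of the Ensembl ID follow it here, as in psme4_018742 (ENSDARG00000018742) and psme4_087911 (ENSDARG00000087911).

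The 10 genes that carried the symbol but did not reach the level were psmd10, psma5, psma6l, psme1, psmb11, psmb11b, psmb12, psmb13a, psmb8 and psmb9. The highest value of any library was 0.182 CPM for psma5, an alpha-ring subunit, and no read was assigned to psme1, so these annotated loci give no account of those subunits. The immune-type subunits psmb8, psmb9, psmb12 and psmb13a peaked at 18.8, 9.45, 10.2 and 12.8 CPM, so that psmb9 never reached 10 CPM and the others did so in too few libraries.

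The 26S proteasome is the protease that degrades ubiquitin-tagged proteins. Its 20S core is a barrel of stacked rings, with alpha subunits (psma genes) forming the outer rings that gate entry and beta subunits (psmb genes) the inner rings that cut proteins; psmb6, psmb5 and psmb7 encode the catalytic subunits with caspase-like, chymotrypsin-like and trypsin-like activity, and psmb10 encodes the immune-type paralog of psmb7. The 19S cap carries an ATPase ring that unfolds substrates (psmc genes) and non-ATPase subunits that bind and remove ubiquitin (psmd genes). Other caps are the PA28 activators (psme1 to psme3) and PA200 (psme4), whereas psmf1 encodes an inhibitor of the core, and chaperones encoded by psmg genes build it. Eggs of many animals rely on stored maternal mRNA for this machinery until the embryo transcribes its own genome, and proteasome activity is known to be needed for meiotic exit and for clearing maternal proteins.

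Fish of the TLAB background were compared: ski7-/- fish, a line carrying a CRISPR/Cas9 deletion with a frameshift in the exon that only the ski7 isoform uses, and wild type (WT). Ski7 is an adaptor that ties the cytoplasmic RNA exosome to the SKI complex. Each genotype had 3 replicates at every stage: oocytes O1 to O4, from small to large, dissected from ovaries of separate females; eggs that were unactivated (INA), activated in water (ACT) or fertilised (FER), all from the same female within a replicate; and pools of embryos at the 2-cell (E1), 64-cell (E2), 1000-cell (E3) and sphere (E4) stages. All 11 stages were sequenced after poly(A) selection, which keeps RNA whose tail binds oligo(dT), and the oocytes and embryos also after removal of ribosomal RNA (rRNA-depleted), which keeps RNA whatever its tail. The deletion leaves most of the shared hbs1l/ski7 locus in place, and reads of that locus at 3.35 to 31.6 CPM over all libraries do not measure the ski7 isoform alone, so these counts do not check the genotype labels.

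The libraries held 2910639 to 145420525 gene-assigned reads after poly(A) selection (66 libraries, median 9182535) and 1439427 to 46600444 after rRNA depletion (48 libraries, median 4649868). A count of 3 reads, the floor used here for detection, stood for 0.0206 to 1.03 CPM and 0.0644 to 2.08 CPM. Some libraries stood apart from the rest of their group. Summed levels of blood and immune markers were 0.50, 1.06 and 407 CPM in the INA eggs of ski7-/- replicates and 3.48, 50.1 and 85.8 CPM in those of WT, against at most 5.04 CPM in ACT and FER eggs; the poly(A) library of ski7-/- O2 replicate 1 and both WT E2 replicate 2 libraries also stood apart from their sets. Markers of oocytes and eggs were detected in every group. In bulk RNA, CPM are shares of a library, and fewer cells of a type and less RNA per cell cannot be told apart. Levels of markers of follicle and theca cells, which lie around oocytes, are not given here. The part of such cells in the differences between dissected oocytes and later stages was not tested.

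In WT poly(A) libraries the proteasome genes had a higher summed level in oocytes than in eggs or embryos. The summed level of the 45 subunit and factor genes was 5110 ± 166, 5329 ± 105, 5241 ± 392 and 5022 ± 192 CPM (SD, n = 3) at O1 to O4, then 1461 ± 154, 1433 ± 104 and 1498 ± 150 CPM in INA, ACT and FER eggs. It was 1451 ± 56, 1790 ± 91, 1939 ± 43 and 2116 ± 81 CPM at E1 to E4. The size of these steps depended on the scaling between libraries. TMM scaling (trimmed mean of M values) was run over all libraries of a type for sums. For every fitted difference it was run over the libraries of that fit, so scaled sums and fits within a period are not on 1 scale. The scaled sum was 2413 ± 336 CPM in INA eggs and 4626 ± 195 CPM at O4, so that the step to the egg was smaller. It was 1639 ± 123, 1493 ± 138, 1483 ± 27 and 1567 ± 57 CPM at E1 to E4, so that no climb was left in embryos. One activator gene, psme4_018742, made up 27.1% of the sum in INA eggs, 1.29% at O4, 26.8% at E1 and 9.06% at E4 (means of 3 libraries). Without the 5 activators and inhibitors the scaled sum of the other 40 genes was 1500 ± 292 CPM in INA eggs and 4467 ± 190 CPM at O4, and 1347 ± 59 CPM at E4 and 1030 ± 104 CPM at E1. In rRNA-depleted libraries the unscaled sum of all 45 genes varied far less, with 3255 ± 85, 3272 ± 100, 3162 ± 101 and 3242 ± 151 CPM at O1 to O4 and 2531 ± 47, 2445 ± 62, 2462 ± 54 and 2365 ± 26 CPM at E1 to E4 (after TMM scaling 3413 ± 151 CPM at O4, 2333 ± 32 CPM at E1 and 2234 ± 32 CPM at E4). The plot of WT levels by stage shows this pattern for each gene.

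**Figure D1:**
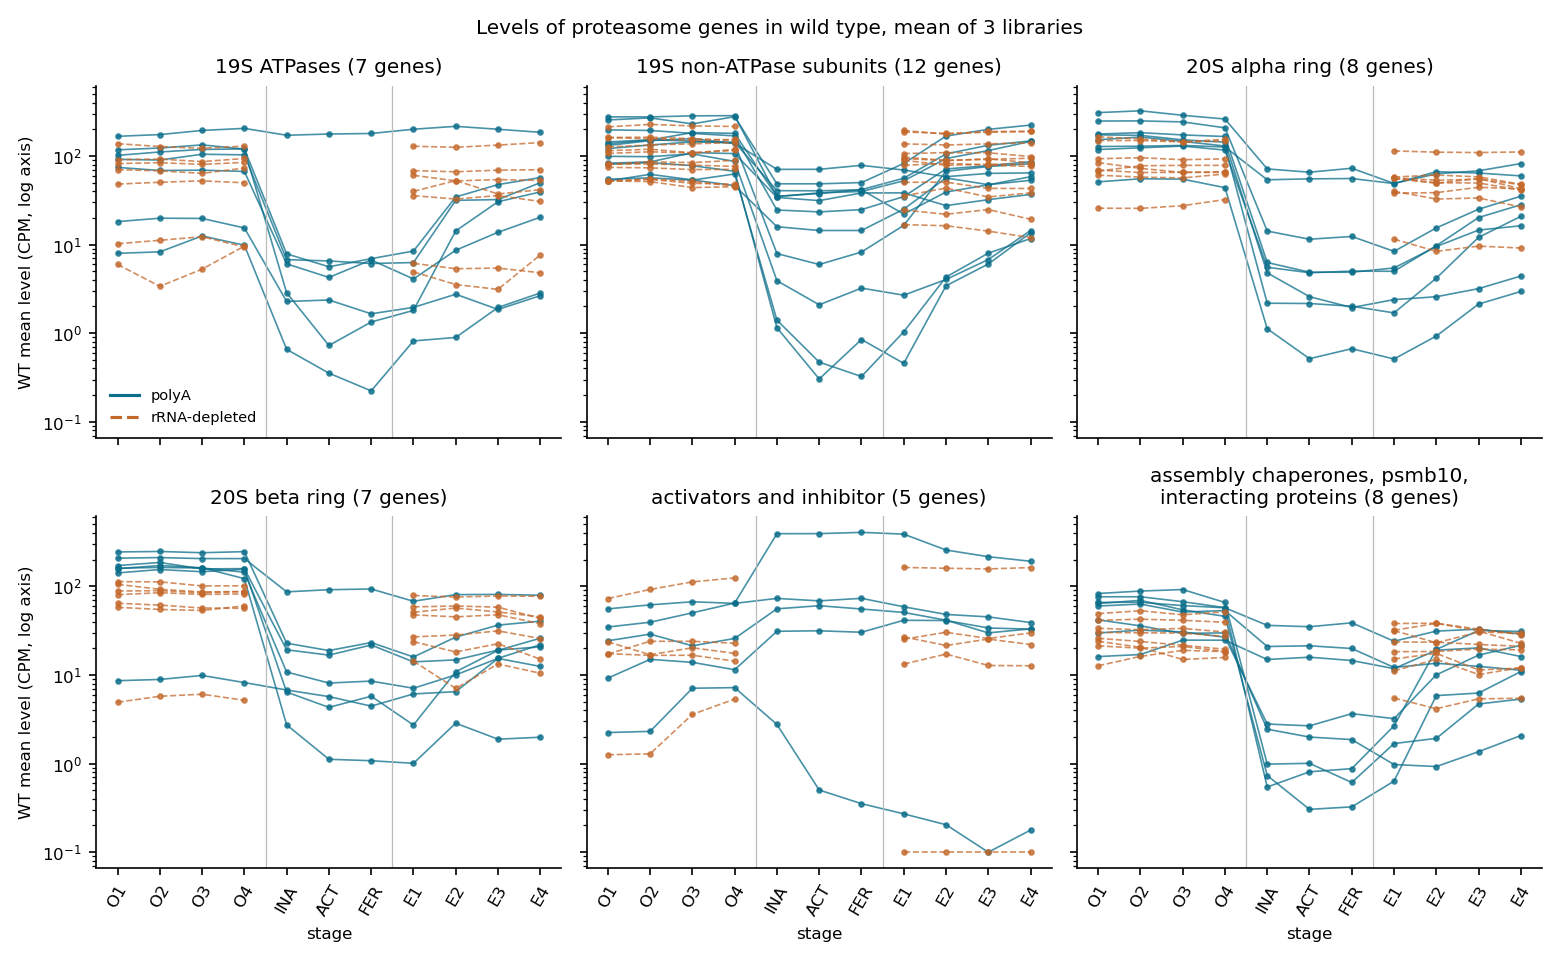
Mean level in WT of each proteasome gene by stage, in CPM on a log axis (mean of 3 libraries), with 1 panel per group of subunits, solid lines for poly(A) and dashed lines for rRNA-depleted libraries; means under 0.1 CPM are drawn at 0.1. Most solid lines drop between O4 and INA and climb after E1, whereas the activators psme4_018742, psme4_087911 and psme3 go the other way and most dashed lines drop less between O4 and E1.

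Within oogenesis the proteasome genes leaned to lower levels, with few calls in poly(A) and more in rRNA-depleted libraries. Between O4 and O1 in poly(A) libraries, edgeR's quasi-likelihood test (adjusted p under 0.05, adjusted over all genes tested) called 1 of 47 proteasome genes higher and 3 lower, against 17.0% and 12.6% of all genes, and the median was -0.16. The gene that rose was psme4_018742, one of the genes for the PA200 cap, by 0.78, and those that fell were psmd9, psmd11_005134 and psmc3ip, by 0.60, 0.30 and 0.53 on the log2 scale. In rRNA-depleted libraries 1 gene, again psme4_018742 (0.62), was higher and 19 of 45 were lower, against 21.7% and 19.8% of all genes, with a median of -0.22 for the proteasome genes and -0.02 for all genes. The poly(A) count of 4 was not stable: it reached 16 without the libraries that stood apart, 14 without ski7-/- replicate 1 and 10 with the replicate number as a block within each genotype, and was 0, 1 and 0 without WT replicate 1, 2 and 3. Without these WT replicates in turn, 9, 9 and 11 genes were lower in rRNA-depleted libraries.

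At the passage from the full-grown oocyte to the egg (INA minus O4, poly(A)), 5 of 47 proteasome genes were higher and 34 lower, against 36.7% and 41.8% of all genes. All 47 reached 10 CPM in 3 or more oocyte libraries, but only 27 did so in egg libraries. The rest, such as psmb6, psmg2, psmc3ip, psmd4 and psmc5, entered this fit through other stages. Their low egg levels are thus in part tied to how they were chosen. The same filter applied to all genes. The median log2 difference was -2.42 for the proteasome genes and -0.17 for all genes tested. By role, all 8 genes of the alpha ring were lower (median -3.69), as were 5 of 7 of the beta ring (-2.59), 6 of 7 of the ATPase ring (-2.99) and 10 of 12 of the non-ATPase subunits (-1.80). Activators and inhibitors went the other way, with 4 of 5 higher and none lower (1.93).

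Among catalytic beta subunits, psmb6 (ENSDARG00000002240) had 0.732, 5.24 and 2.22 CPM in WT INA eggs, against 132, 112 and 122 CPM in WT O4 oocytes. The groups lay far apart, and psmb6 was lower by -4.57 ± 0.50 (log2 ± SE, 23.7-fold lower, edgeR adjusted p = 1.22e-11). For psmb7 (ENSDARG00000037962) the values were 17.8, 31.2 and 19.5 CPM in INA eggs, against 245, 239 and 255 CPM in O4 oocytes, a difference of -2.59 ± 0.23 (adjusted p = 2.39e-14). Both catalytic genes thus fell, by different amounts. The exception was psmb5, at 0.51 ± 1.39 (adjusted p = 0.745), whose wide error goes with the large differences between replicates given further on. The immune-type psmb10 was lower too, with 0.549, 4.59 and 2.18 CPM in INA eggs, against 21.4, 32.9 and 35.1 CPM in O4 oocytes (-2.70).

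The lowest values of all came from psmc3ip (ENSDARG00000037892), a partner of the ATPase psmc3 known in mammals for a role in meiotic recombination, and from psmg2 (ENSDARG00000035987), a chaperone of alpha-ring assembly. WT INA eggs had 1.01, 0.284 and 0.339 CPM of psmc3ip, against 61.1, 57.1 and 54.0 CPM in O4 oocytes, a 68.5-fold lower level (-6.10 ± 0.33, adjusted p = 1.79e-21). For psmg2 they had 1.1, 1.18 and 0.678 CPM, against 66.5, 68.5 and 62.2 CPM, a 38.2-fold lower level (-5.26 ± 0.33, adjusted p = 1.51e-19). No library of the eggs came near those of the oocytes for either gene. The other assembly chaperone genes, psmg1 and psmg3, differed by 0.14 and -0.50 after TMM scaling and did not pass the test. Before scaling psmg3 had 18.8, 26.2 and 17.8 CPM in INA eggs, against 40.8, 45.0 and 74.0 CPM in O4 oocytes, without overlap. For psmg1 the values were 37.6, 53.6 and 17.6 CPM, against 61.9, 58.0 and 51.8 CPM, and these ranges overlap.

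In the 19S cap the ubiquitin receptor gene psmd4 (ENSDARG00000101295) had 0.0915, 2.11 and 1.25 CPM in INA eggs, against 67.1, 66.2 and 67.8 CPM in O4 oocytes (-4.87 ± 0.50, adjusted p = 1.94e-12). The lowest of these egg values lay under the 3-read floor of its library (0.275 CPM). The ATPase gene psmc5 (ENSDARG00000015315) had 0.641, 5.69 and 2.25 CPM in INA eggs, against 123, 108 and 128 CPM in O4 oocytes (-4.47 ± 0.47). Not every subunit of the cap fell so far. The gene of the lid deubiquitinase, psmd14, differed by -0.14 ± 0.17 after TMM scaling (edgeR adjusted p = 0.438). Before scaling its CPM were lower without overlap, at 71.7, 74.8 and 65.1 in INA eggs, against 144, 145 and 128 in O4 oocytes. The ATPase gene psmc3 (ENSDARG00000007141) was called higher by 0.62 ± 0.21 (adjusted p = 0.00829) even though its CPM were 124, 175 and 214 in INA eggs, against 192, 203 and 219 in O4 oocytes. Its direction came from the TMM scaling, which multiplied WT INA levels by a median of 1.66 and O4 levels by 0.92, so no direction is given for it here. All log2 differences and folds given here are after TMM scaling within their own fit, whereas CPM are before it.

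The genes that rose belonged to alternative caps and the inhibitor. PA200 gene psme4_018742 had 427, 381 and 368 CPM in WT INA eggs, against 56.3, 52.2 and 85.6 CPM in O4 oocytes. Every egg library was above every oocyte library, and the fitted level was 10.8-fold higher (3.44 ± 0.22, adjusted p = 4.46e-19). Its second gene psme4_087911 had 29.7, 28.9 and 34.6 CPM in INA eggs, against 16.2, 7.04 and 11.1 CPM (2.29 ± 0.27, 4.90-fold). The PA28 gamma gene psme3 (ENSDARG00000012234) had 58.7, 70.7 and 37.9 CPM in INA eggs, against 22.2, 25.6 and 29.7 CPM (1.93 ± 0.26). For all these genes the egg values lay above the oocyte values without overlap. The inhibitor gene psmf1 was called higher by 1.04 ± 0.18 with 60.3, 86.6 and 72.1 CPM in INA eggs, against 63.5, 54.1 and 75.1 CPM, so that its CPM overlapped and its call too rested on the scaling.

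Blood and immune markers were raised in WT INA replicates 2 and 3 beside these results, as given above. Without the libraries that stood apart the comparison called 4 proteasome genes higher and 36 lower. Of all 10823 genes tested it then called 3626 higher and 4454 lower. The medians were -3.08 for the proteasome genes and -0.40 for all genes. Between ACT and INA and between FER and ACT, edgeR called no gene at all (0.0% of all genes in each direction), so the 0 of 27 proteasome genes is no result about them. At an unadjusted p under 0.05 there were 0 of 27 in each, against 1.69% and 0.221% of all genes. The fit behind both counts did not pair the egg stages within a replicate set. Yet stages of a WT egg set deviated together, with correlations of 0.716, 0.745 and 0.907 for replicates 1, 2 and 3. An unpaired fit can miss small steps that all sets share, so the lack of calls does not show that levels stayed the same. Results of a block within genotype are not given for these steps. The PA200 gene psme4_018742 had 414, 396 and 369 CPM in WT ACT eggs, and 431, 412 and 375 CPM in FER eggs.

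Between the 2-cell embryo and the fertilised egg, 3 of 47 genes were higher and 17 lower, against 21.3% and 23.7% of all genes, with a median of -0.50. Those that rose were psmd7, psmg2 and psmc3ip, by 0.62, 0.88 and 1.2. Without WT replicate 3, 11 genes were called.

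During early cleavage and up to sphere stage the movement reversed in poly(A) libraries. Between E4 and E1, 24 of 39 proteasome genes were higher and 7 lower, against 37.7% and 32.6% of all genes, and the median was 0.92, compared with 0.07 for all genes. The filter of this fit pooled all embryo stages, for all genes alike. For example, psmd4 and psma2 reached 10 CPM in 8 and 11 libraries, all at E3 or E4. Genes that stayed low, such as psma1, psmb6, psmg2 and psmb10, were not tested. The count among the proteasome genes therefore favours those that rose. Most of the calls came with the first step, since 17 genes were higher and 7 lower between E2 and E1 (32.6% and 27.1% of all genes), 5 and 2 between E3 and E2 (6.78% and 7.41%), and 1 and 0 between E4 and E3 (1.26% in each direction). By role, 10 of 12 non-ATPase subunits, 4 of 5 ATPase genes, 4 of 6 alpha-ring genes and 3 of 6 beta-ring genes were higher, whereas all 4 tested activators or inhibitors were lower.

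The largest gains among the proteasome genes tested were those of psmd4 and psmc5. WT embryos at E4 had 10.8, 14.8 and 15.0 CPM of psmd4, against 0.0897, 0.719 and 0.560 CPM at E1, a 19.6-fold higher level (4.29 ± 0.42, adjusted p = 2.14e-08). The lowest E1 value of psmd4 lay under the 3-read floor of its library (0.269 CPM). Depth therefore limits the size of every psmd4 difference that uses the poly(A) E1 libraries. For psmc5 WT embryos had 41.5, 32.7 and 43.4 CPM at E4, against 1.61, 1.56 and 2.24 CPM at E1, a 16-fold higher level (4.0 ± 0.18, adjusted p = 3.24e-13). Neither gene came back to its oocyte level. Alpha-ring gene psma2 (ENSDARG00000035679) had 23.9, 16.8 and 21.7 CPM at E4, against 1.52, 1.31 and 2.24 CPM at E1 (3.18 ± 0.32). The catalytic gene psmb7 reached 42.1, 37.0 and 42.1 CPM at E4, against 15.1, 21.7 and 11.1 CPM at E1 (0.85 ± 0.17). Catalytic psmb6 stayed low, at 2.46, 2.07 and 1.42 CPM at E4 and 0.987, 1.19 and 0.841 CPM at E1, and did not reach the level needed for the test.

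PA200 gene psme4_018742 had 182, 191 and 202 CPM at E4, against 378, 387 and 399 CPM at E1 (-1.5 ± 0.08, 2.83-fold lower, adjusted p = 4.59e-12). All E4 libraries were below all E1 libraries. Its relatives in this group fell as well: psme3 by 1.1, psmf1 by 1.07 and psme4_087911 by 0.81 on the log2 scale. The psme4 genes and psme3 thus moved opposite to most core and 19S genes both at the oocyte-to-egg passage and in the embryo.

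The rRNA-depleted libraries did not show these movements to the same degree. Between E4 and E1, 2 of 46 genes were lower and none higher, against 0.948% and 0.615% of all genes, with a median of -0.12. At an unadjusted p under 0.05, 6 of 46 passed, 1 of them higher, against 9.78% of all genes. The 2 called genes were the assembly chaperone gene psmg2, with 23.5, 20.3 and 24.4 CPM at E4, against 40.6, 39.2 and 34.4 CPM at E1 (-0.71 ± 0.14, adjusted p = 0.00649), and the alpha-ring gene psma1, with 26.0, 24.1 and 29.6 CPM at E4, against 36.0, 41.6 and 42.1 CPM (-0.56 ± 0.13, adjusted p = 0.0290). Both genes showed lower values in every E4 library, but without WT replicate 1 or 2 neither was called. The genes with the largest poly(A) gains differed little, psmd4 by -0.30 ± 0.18 (adjusted p = 0.682) and psmc5 by -0.17 ± 0.14 (adjusted p = 0.870), and so did psme4_018742 by 0.03 ± 0.10 (adjusted p = 0.997).

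Across the gap where no rRNA-depleted egg library exists, E1 was set against O4 in both library types, a comparison added after the data were seen. In rRNA-depleted libraries none of 46 genes was higher and 32 were lower, against 19.1% and 24.4% of all genes, with a median of -0.64 and -0.01 for all genes. At an unadjusted p under 0.05, 2 were higher. In poly(A) libraries 3 of 47 were higher and 40 lower, against 35.8% and 41.3%, with a median of -3.18. This poly(A) fit used the same filter as INA minus O4, so the limit given there holds here too. The poly(A) difference lay below the rRNA-depleted one for 34 genes and above it for 4, tested as the interaction of library type with stage, which called 28.0% and 33.0% of all genes in those directions. The catalytic gene psmb6 fell in both, to 21.8, 26.5 and 22.9 CPM at E1, against 98.7, 77.7 and 85.6 CPM at O4, in rRNA-depleted libraries (-2.07 ± 0.24, 4.19-fold lower), and by 6.53 on the log2 scale in poly(A) libraries. Receptor gene psmd4 had 23.6, 29.0 and 21.0 CPM at E1, against 46.3, 39.8 and 48.6 CPM at O4, in rRNA-depleted libraries (-1.07 ± 0.13), and differed by -6.68 ± 0.57 in poly(A) libraries. PA200 gene psme4_018742 had 149, 168 and 173 CPM at E1, against 125, 119 and 129 CPM at O4, in rRNA-depleted libraries (0.20 ± 0.09, adjusted p = 0.0599), whereas its poly(A) level differed by 2.88 ± 0.22.

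Because the library types disagreed, they were compared directly at each stage. In WT oocytes, 37, 37, 38 and 38 of 47 genes were higher in poly(A) than in rRNA-depleted libraries at O1, O2, O3 and O4, where 28.5%, 27.6%, 26.9% and 25.9% of all genes were. Lower in poly(A) libraries were 3, 2, 2 and 2 genes, against 28.4%, 30.8%, 32.3% and 30.5%. Medians over the proteasome genes were 0.99, 0.97, 0.91 and 0.69. At the 2-cell stage the picture was inverted, with 7 of 46 genes higher and 31 lower in poly(A) libraries, against 33.4% and 40.0% of all genes, and a median of -1.68. The imbalance then shrank to 7 and 30 at E2 (26.9% and 29.0%), 5 and 26 at E3 (21.1% and 23.5%) and 3 and 17 at E4 (14.5% and 17.6%), with medians of -0.83, -0.70 and -0.32.

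**Figure D2:**
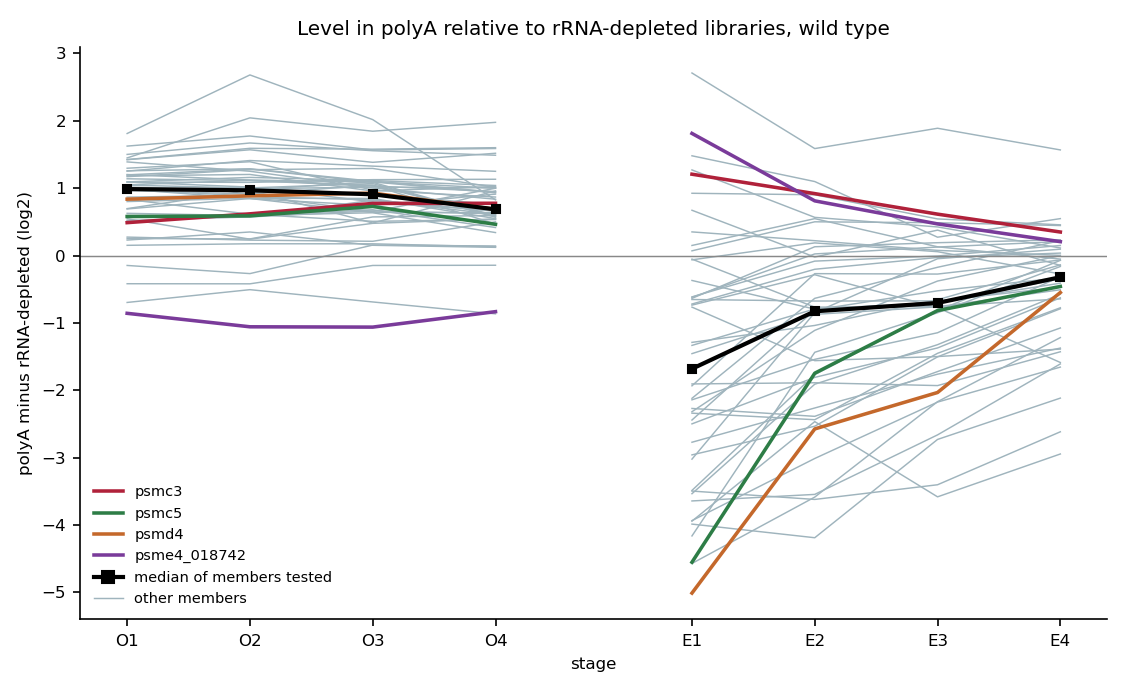
Difference between poly(A) and rRNA-depleted libraries (log2, fitted by edgeR) for each proteasome gene in WT at O1 to O4 and E1 to E4, with grey lines for single genes, coloured lines for psmc3, psmc5, psmd4 and psme4_018742 and a black line for the median. The median is 0.69 at O4, -1.68 at E1 and -0.32 at E4, and psme4_018742 runs opposite to psmd4 and psmc5.

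The genes spread widely around these medians. At E1, psmd4 was lower in poly(A) libraries by -5.01 ± 0.32 (32.2-fold lower) and psmc5 by -4.55 ± 0.17 (23.5-fold lower), while at O4 they were higher by 0.69 ± 0.15 and 0.46 ± 0.12. PA200 gene psme4_018742 was higher in poly(A) libraries at E1 by 1.81 ± 0.10 and lower at O4 by -0.83 ± 0.19. Those signs are opposite for the receptor and ATPase genes on one hand and the PA200 gene on the other. The inhibitor gene psmf1 was higher in poly(A) libraries at both stages, by 1.98 at O4 and 2.71 at E1. At E4 the differences of psmd4 (-0.55) and psme4_018742 (0.21) no longer passed the test, but psmb6, psma1 and psmg2 still stood at -2.95, -2.62 and -2.12.

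The change of the library-type difference between E4 and E1 was tested as an interaction, and 26 of 46 genes had a positive and 8 a negative one, against 30.3% and 27.1% of all genes, with a median of 0.94. It was 4.46 ± 0.41 for psmd4 and 4.09 ± 0.22 for psmc5, and -1.61 ± 0.14 for psme4_018742 and -1.16 ± 0.20 for psme4_087911. Between O4 and O1 no proteasome gene of 47 had such a change, against 1.60% and 2.58% of all genes. In ski7-/- samples 33 to 37 of 47 genes were higher in poly(A) libraries of oocytes (23.6% to 28.0% of all genes). At E1, 8 of 46 were higher and 29 lower in poly(A) libraries (32.9% and 38.1% of all genes), and at E4 7 and 16 (14.1% and 15.9%).

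The effect of ski7 loss was then examined stage by stage. In oocytes few proteasome genes were called, at or below the share of all genes for most stages. In poly(A) libraries none of 47 genes was called at O1 or O4, where 4.11% and 2.89% of all genes were higher and 4.02% and 3.55% lower and where 5 and 4 proteasome genes had an unadjusted p under 0.05 (20.1% and 18.1% of all genes). At O2 none was higher and psmc6 and psmd6 were lower (background 7.51% and 4.22%), and at O3 psmc6 alone was lower (3.80% and 3.91%). The psmc6 gene reached 10 CPM in 12 poly(A) oocyte libraries, all of them WT. It entered the genotype tests of oocytes only through the genotype where it is high, so its calls are no support for a difference. The fitted values nevertheless leaned to lower levels in ski7-/-, with medians of -0.05, -0.25, -0.19 and -0.04 at O1 to O4 and 31, 41, 39 and 31 of 47 genes negative, where the medians of all genes were 0.02, 0.06, 0.01 and 0.00. In rRNA-depleted libraries 1 or 2 of 45 genes were lower at each stage, against 8.91%, 6.96%, 5.97% and 6.07% of all genes, and 0, 0, 1 and 1 were higher, against 7.34%, 6.14%, 4.90% and 5.42%, with medians of -0.06, -0.05, 0.02 and -0.02. The 3 poly(A) calls became 9 without the libraries that stood apart and 8 without ski7-/- replicate 2. The 8 rRNA-depleted calls became 4 without ski7-/- replicate 1, 5 without ski7-/- replicate 3 and 5 without WT replicate 2, and 4 when each stage was fitted alone. The heat map of genotype differences shows the fitted values.

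**Figure D3:**
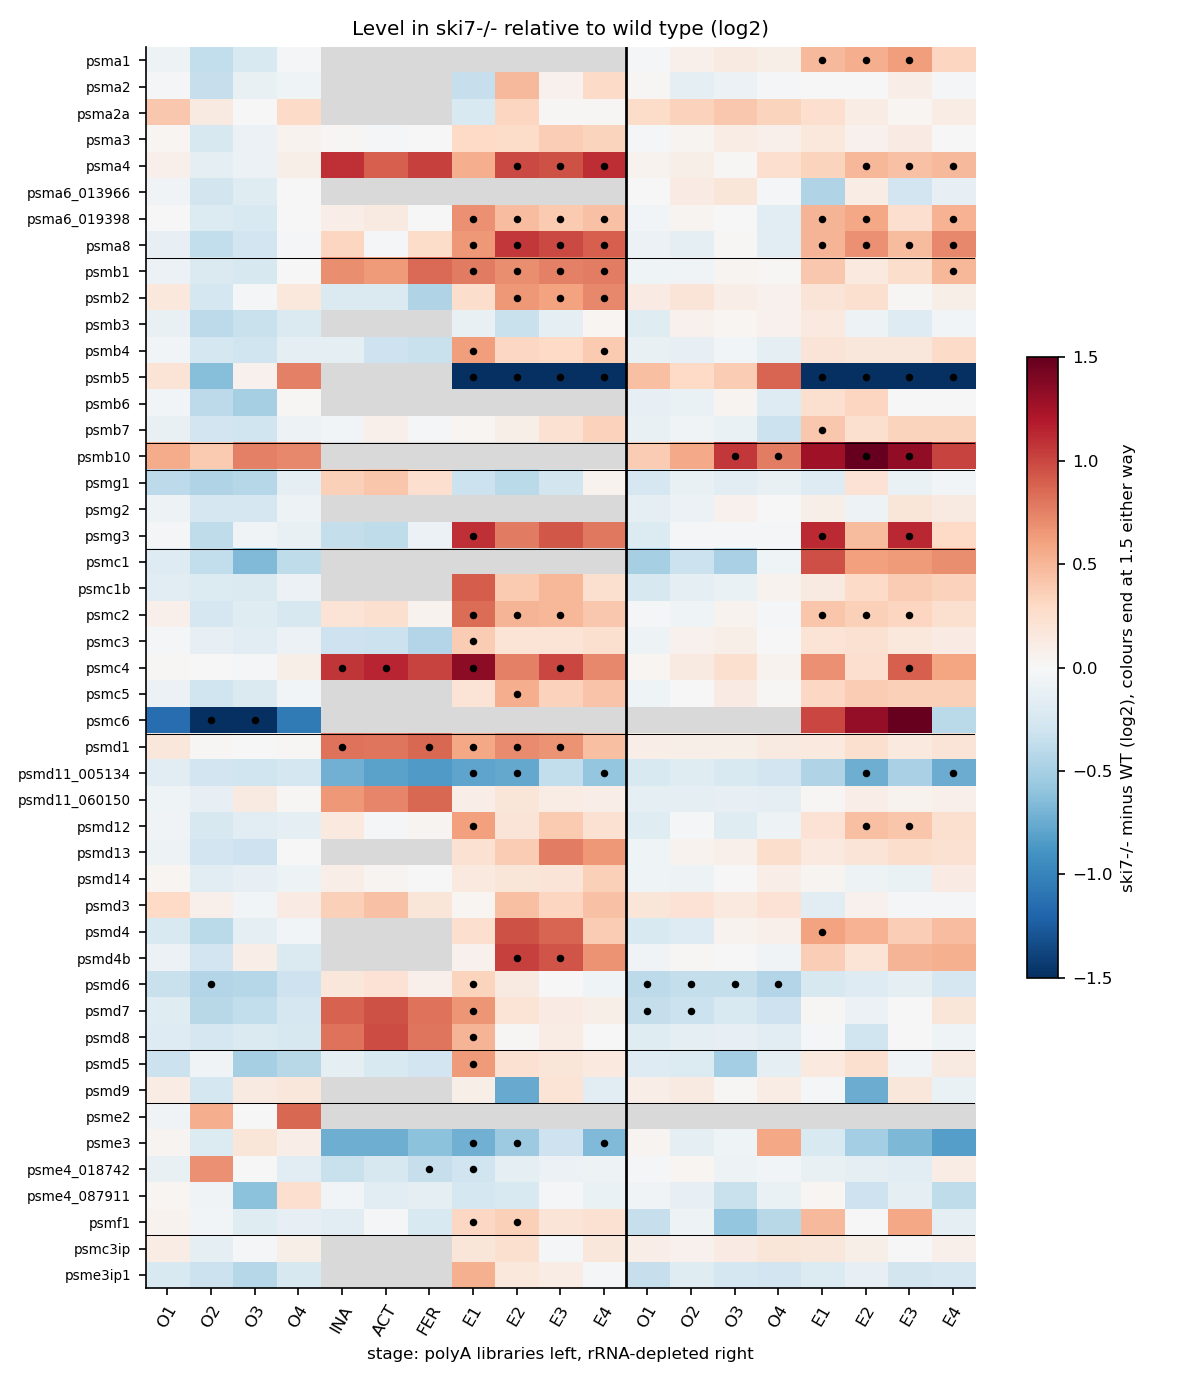
Difference between ski7-/- and WT (log2) for the 47 proteasome genes (rows, grouped by role) at each stage (columns), poly(A) libraries left and rRNA-depleted libraries right; colours end at 1.5 in either direction, dots mark an adjusted p under 0.05, and grey cells were not tested. Dots gather in the embryo columns, mostly on positive values, with psmb5 strongly negative there.

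The lid subunit gene psmd6 (ENSDARG00000070674) was the member called lower at every oocyte stage in rRNA-depleted libraries. It had 121, 123 and 129 CPM in ski7-/- O1 oocytes, against 158, 179 and 146 CPM in WT, and 116, 106 and 109 CPM in ski7-/- O4 oocytes, against 152, 155 and 153 CPM in WT. The genotypes did not overlap at any oocyte stage in either library type. When the 4 stages were averaged per replicate, giving 3 values per genotype, limma put psmd6 at -0.38 ± 0.07 in rRNA-depleted libraries (adjusted p = 0.0193) and -0.38 ± 0.09 in poly(A) libraries (adjusted p = 0.0382). By that test psmd7, another lid subunit, was lower by -0.30 ± 0.07 in rRNA-depleted libraries (adjusted p = 0.0479), and the ATPase gene psmc6 (ENSDARG00000037038) by -1.31 ± 0.23 in poly(A) libraries (adjusted p = 0.0158). At O3, ski7-/- oocytes had 7.21, 6.33 and 5.21 CPM of psmc6, against 16.5, 27.2 and 15.4 CPM in WT. Its entry only through WT libraries, given above, limits its call here too. In all, this test called 1 gene higher and 2 lower of 47 in poly(A) libraries (6.45% and 5.72% of all genes), where 38 of 47 were negative with a median of -0.16, and 1 and 2 of 45 in rRNA-depleted libraries (5.72% and 6.49%). These 3 calls in each type rested on single replicates: in poly(A) libraries 0, 1 and 0 genes were called without ski7-/- replicate 1, 2 and 3 and 1 without WT replicate 1, and in rRNA-depleted libraries none without any ski7-/- replicate and 1 without WT replicate 2.

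The gene that was higher by that test in both library types was psmb10 (ENSDARG00000043781), at 0.59 ± 0.14 in poly(A) (adjusted p = 0.0396) and 0.70 ± 0.16 in rRNA-depleted libraries (adjusted p = 0.0386). In rRNA-depleted O4 libraries ski7-/- oocytes had 30.4, 20.8 and 27.7 CPM, against 10.9, 15.9 and 20.3 CPM in WT. Every ski7-/- value was above every WT value at all 4 oocyte stages in rRNA-depleted libraries and at 2 of 4 in poly(A) libraries. Since psmb10 is also a gene of immune cells, the marker sums matter here: the 7 blood and immune genes summed to 43.5 to 86.1 CPM in ski7-/- O4 oocytes and 28.1 to 39.0 CPM in WT O4 oocytes (rRNA-depleted), and to 89.9 to 171 CPM and 47.0 to 106 CPM (poly(A)). At O1 the ranges were 12.5 to 40.1 CPM in ski7-/- and 14.0 to 21.5 CPM in WT oocytes (rRNA-depleted). Their part in the psmb10 difference was not tested.

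In mature eggs 27 proteasome genes were tested and few were called. The ATPase gene psmc4 and the non-ATPase gene psmd1 were higher at INA (1.07 and 0.81), psmc4 at ACT (1.14) and psmd1 at FER (0.86), and psme4_018742 was lower at FER (-0.34), where 9.03%, 7.64% and 9.08% of all genes were higher and 9.39%, 7.42% and 10.8% lower. FER eggs had 382, 388 and 353 CPM of psme4_018742 in ski7-/-, against 431, 412 and 375 CPM in WT, and these ranges overlap. Its call rested mostly on the TMM scaling within the fit of mature eggs. At ACT, ski7-/- eggs had 20.2, 10.3 and 19.2 CPM of psmc4, against 6.72, 6.92 and 5.95 CPM in WT. The psmc4 gene reached 10 CPM in 9 egg libraries, all of them ski7-/-. It entered the egg tests only through the genotype where it is high, so its calls there are no support for a difference. Over the period mean none of the 27 was called, against 3.67% and 4.04% of all genes; at an unadjusted p under 0.05 there were 5, against 32.4% of all genes. The 5 calls at single stages were lost without ski7-/- replicate 3, without WT replicate 2 or 3, or when each stage was fitted alone, fell to 3 without ski7-/- replicate 1 or 2, and became 9 without WT replicate 1.

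In embryos the differences were more numerous and leaned to higher levels in ski7-/-. In poly(A) libraries 15, 10, 9 and 6 of 39 genes were higher at E1, E2, E3 and E4, against 13.9%, 7.65%, 7.17% and 7.11% of all genes. Lower were 4, 3, 1 and 3 genes, against 14.2%, 7.74%, 7.63% and 7.89%. Medians over the 39 genes were 0.27, 0.28, 0.20 and 0.25, where the median of all genes was close to -0.01. In rRNA-depleted libraries 7, 7, 8 and 4 of 46 were higher, against 5.72%, 5.18%, 7.38% and 5.70%, and 1, 2, 1 and 2 were lower, against 5.92%, 5.76%, 7.25% and 6.42%, with medians of 0.17, 0.18, 0.15 and 0.13. Among these 46, psmb10 and psmc1 reached 10 CPM only in ski7-/- libraries. In both library types psmb5 did so only in WT libraries. Such genes entered the counts through a single genotype.

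These tests treat the stages of a replicate set as independent libraries, so their p-values are too small. Summed over the 4 stages they gave 40 higher and 11 lower calls in poly(A) and 26 and 6 in rRNA-depleted libraries, which became 22 and 3, and 5 and 0, when each stage was fitted alone. Without ski7-/- replicate 1, ski7-/- replicate 2 and WT replicate 1 the higher calls were 22, 26 and 26 in poly(A) and 11, 11 and 13 in rRNA-depleted libraries, and the lower calls 6, 5 and 5, and 3, 3 and 1; without ski7-/- replicate 3 the lower calls in rRNA-depleted libraries were 3. With each set reduced to its mean over the 4 stages, limma called 7 genes higher and 3 lower of 39 in poly(A) libraries (7.98% and 8.45% of all genes) and 10 higher and 2 lower of 46 in rRNA-depleted libraries (7.74% and 7.32%). In place of these 10 and 12 calls, poly(A) libraries gave 6 without ski7-/- replicate 1 or 2 and 5 without WT replicate 1 or 2, and rRNA-depleted libraries gave 5, 3 and 7 without ski7-/- replicate 1, 2 and 3 and 3, 4 and 4 without WT replicate 1, 2 and 3.

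The summed level of the 45 genes was 1781 ± 83, 2130 ± 74, 2318 ± 60 and 2525 ± 76 CPM at E1 to E4 in ski7-/- embryos, against 1451 ± 56, 1790 ± 91, 1939 ± 43 and 2116 ± 81 CPM in WT (poly(A), SD, n = 3). After TMM scaling it was 1824 ± 91, 1672 ± 30, 1794 ± 65 and 1913 ± 51 CPM in ski7-/- embryos, against 1639 ± 123, 1493 ± 138, 1483 ± 27 and 1567 ± 57 CPM in WT. In rRNA-depleted libraries it was 2815 ± 50, 2705 ± 25, 2720 ± 70 and 2641 ± 130 CPM in ski7-/- embryos, against 2531 ± 47, 2445 ± 62, 2462 ± 54 and 2365 ± 26 CPM in WT.

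In the alpha ring, psma8 (ENSDARG00000010965) was called higher at every embryo stage in both library types. In poly(A) libraries ski7-/- embryos had 18.2, 11.4 and 14.4 CPM at E1, against 6.10, 11.6 and 7.43 CPM in WT, and 77.2, 56.5 and 66.2 CPM at E4, against 39.2, 30.1 and 36.0 CPM in WT. The genotypes overlapped at E1 through WT replicate 2 and lay apart at E4. In rRNA-depleted libraries ski7-/- embryos had 91.2, 75.1 and 75.6 CPM at E1, against 58.4, 59.0 and 50.3 CPM in WT, and 79.6, 66 and 68.5 CPM at E4, against 38.2, 46.1 and 43.3 CPM in WT. The period means differed by 0.91 ± 0.16 in poly(A) (1.87-fold, limma adjusted p = 0.0161) and 0.60 ± 0.09 in rRNA-depleted libraries (1.52-fold, adjusted p = 0.0103).

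The alpha-ring gene psma6_019398 (ENSDARG00000019398) was likewise called at every embryo stage in poly(A) libraries. It had 102, 81.5 and 73.0 CPM in ski7-/- E1 embryos, against 43.4, 50.2 and 52.8 CPM in WT, and 90.0, 77.4 and 78.3 CPM at E4, against 61.3, 58.6 and 58.7 CPM in WT. No value overlapped between genotypes at any embryo stage in either library type, which also held for psma4 and the ATPase gene psmc2. The share of all genes that lay apart in this way is not given, so this only describes the values. Period means of psma6_019398 differed by 0.49 ± 0.08 (adjusted p = 0.0130) in poly(A) and 0.47 ± 0.09 (adjusted p = 0.0203) in rRNA-depleted libraries. The alpha-ring gene psma4 differed by 0.89 ± 0.18 and 0.44 ± 0.08, and psmc2 by 0.55 ± 0.12 and 0.33 ± 0.07. At E4, ski7-/- embryos had 39.5, 29.7 and 37.8 CPM of psma4, against 14.5, 14.4 and 20 CPM in WT (poly(A)). Alpha-ring gene psma1 could be tested only in rRNA-depleted libraries, where the period means differed by 0.49 ± 0.10 (adjusted p = 0.0238).

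In the beta ring, psmb1 (ENSDARG00000009640) was called higher at every embryo stage in poly(A) libraries. It had 12.6, 10.7 and 16.6 CPM in ski7-/- E1 embryos, against 5.65, 8.43 and 7.15 CPM in WT, and 41.7, 34.0 and 38.2 CPM at E4, against 23.7, 16.6 and 25.6 CPM in WT. Both stages were free of overlap. The period means differed by 0.75 ± 0.15 in poly(A) (adjusted p = 0.0207) and 0.33 ± 0.08 in rRNA-depleted libraries (adjusted p = 0.0444). Catalytic psmb6 and psmb7 were not among the genes called by period mean in either library type, although psmb7 was higher at E1 in rRNA-depleted libraries (0.40). The ski7-/- values of psmb7 lay above all WT values at 4 of 4 embryo stages in rRNA-depleted libraries and 2 of 4 in poly(A) libraries.

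The immune-type psmb10 was below the test's level in poly(A) embryo libraries, where ski7-/- embryos had 5.89, 3.81 and 2.35 CPM at E1, against 1.17, 0.918 and 0.841 CPM in WT, and 5.95, 4.14 and 4.90 CPM at E4, against 3.56, 0.828 and 1.83 CPM in WT. In rRNA-depleted libraries it had 19.7, 10.8 and 9.91 CPM in ski7-/- E1 embryos, against 8.48, 5.52 and 2.46 CPM in WT, and 12.5, 10.5 and 10.6 CPM at E4, against 5.88, 4.93 and 5.55 CPM in WT. Every ski7-/- value exceeded every WT value at all 4 embryo stages in both types. The period means differed by 1.24 ± 0.26 in rRNA-depleted libraries (2.35-fold, adjusted p = 0.0272). There psmb10 reached 10 CPM in 9 embryo libraries, all of them ski7-/-. It entered this test only through the genotype where it is high, so the call is no support for a difference. Blood and immune markers summed to 0 to 2.24 CPM in ski7-/- embryos and 0.718 to 3.94 CPM in WT embryos over both library types, so they were near 0 in these libraries.

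**Figure D4:**
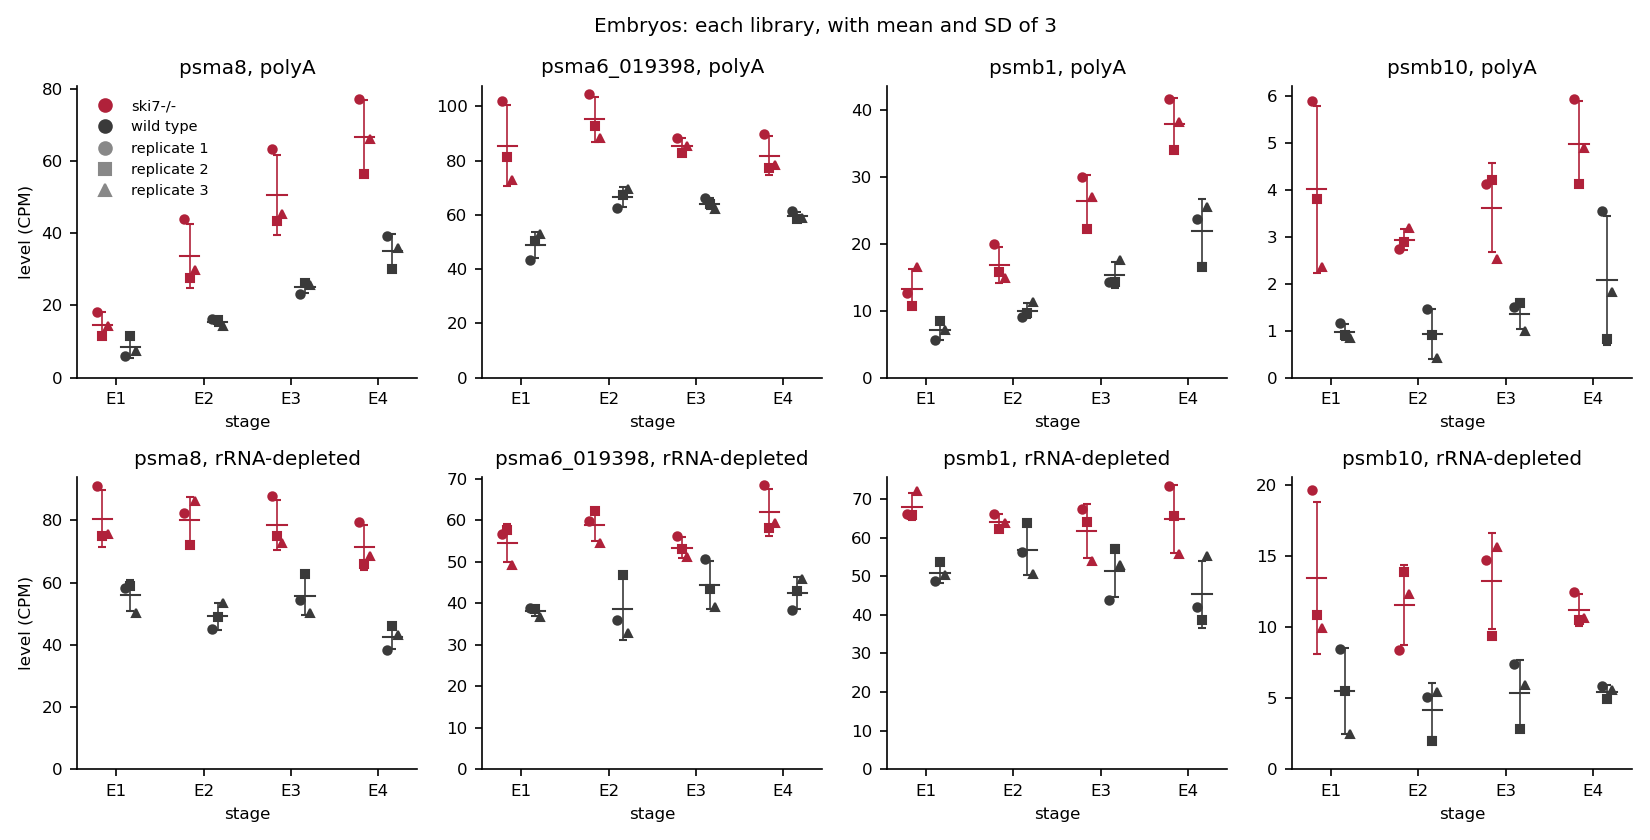
Levels of psma8, psma6_019398, psmb1 and psmb10 in ski7-/- (left of each pair) and WT embryos at E1 to E4, in CPM, for poly(A) (top) and rRNA-depleted libraries (bottom); points are libraries, bars the mean with its SD (n = 3). At E4 in poly(A) libraries psma8 lies at 56.5 to 77.2 CPM in ski7-/- and 30.1 to 39.2 CPM in WT.

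Other roles were mixed. The core assembly chaperone gene psmg3 differed by 0.79 ± 0.19 in rRNA-depleted libraries (adjusted p = 0.0396) and 1.01 ± 0.28 in poly(A) libraries (adjusted p = 0.0557), with WT replicate 2 low at E1 and E3 (4.09 and 4.75 CPM, against 10.1 to 17.4 CPM in the other WT poly(A) embryo libraries). The ATPase gene psmc4 differed by 1.02 ± 0.27 in poly(A) libraries (adjusted p = 0.0479) and the beta-ring gene psmb4 by 0.41 ± 0.11 (adjusted p = 0.0435). In rRNA-depleted libraries psmc5 differed by 0.34 ± 0.09 and the lid gene psmd12 by 0.33 ± 0.07.

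Against the general direction, the lid subunit psmd11_005134 (ENSDARG00000005134) and the activator psme3 were lower. At E4, ski7-/- embryos had 36.3, 38.1 and 33.5 CPM of psmd11_005134, against 56.4, 50.9 and 52.1 CPM in WT, in poly(A) libraries, and 20, 23.9 and 25.6 CPM, against 43.1, 35.1 and 36.6 CPM in WT, in rRNA-depleted libraries. Its genotypes lay apart at all 4 embryo stages in poly(A) and 3 of 4 in rRNA-depleted libraries, and its period means differed by -0.62 ± 0.11 (adjusted p = 0.0149) and -0.58 ± 0.11 (adjusted p = 0.0198). The second psmd11 gene, psmd11_060150, had 215, 212 and 179 CPM in ski7-/- E4 embryos, against 185, 186 and 195 CPM in WT (rRNA-depleted). Its ski7-/- values lay above all WT values at 2 of 4 embryo stages in poly(A) libraries. In rRNA-depleted libraries they did so at 1 of 4, and they lay below WT at no embryo stage. For psme3, ski7-/- embryos had 29.9, 32.8 and 37.7 CPM at E1, against 57.9, 48.4 and 45.8 CPM in WT, and 18.2, 22.4 and 23.1 CPM at E4, against 33.0, 34.6 and 31.7 CPM in WT (poly(A)). In poly(A) libraries the genotypes lay apart at E1, E2 and E4 and overlapped at E3, and the period means differed by -0.57 ± 0.11 (adjusted p = 0.0181). In rRNA-depleted libraries they lay apart at E3 and E4 only, with 13.0, 13.9 and 42.1 CPM in ski7-/- E1 embryos, against 20.9, 25.1 and 34.7 CPM in WT, and the period means differed by -0.57 ± 0.17 without passing the test (adjusted p = 0.0706).

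The catalytic gene psmb5 (ENSDARG00000075445) was at a high or a very low level depending on the replicate. In poly(A) libraries of oocytes, ski7-/- replicate 1 had 17.6 to 40.0 CPM over O1 to O4, whereas replicates 2 and 3 had 0.309 to 0.996 and 0.360 to 0.584 CPM. In WT oocytes replicates 1 and 2 had 9.98 to 12.3 and 13.4 to 18.5 CPM, and replicate 3 had 0.265 to 0.564 CPM. High and low replicates, each from 1 female, thus occurred in both genotypes, and each kept its level at all 4 stages. The rRNA-depleted libraries gave the same order: ski7-/- replicate 1 had 21.4 to 25.9 CPM and replicates 2 and 3 had 0 to 0.186 and 0 to 0.297 CPM, and WT replicates 1 and 2 had 6.67 to 8.52 and 7.57 to 9.92 CPM and replicate 3 had 0.137 to 0.411 CPM.

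In eggs and embryos all ski7-/- sets were low. Eggs had 0 to 0.261 CPM (0 to 7 reads) in the 9 ski7-/- libraries, against 2.32 to 10.5 CPM (26 to 258 reads) in the 9 WT libraries. Embryos had 0 to 0.604 CPM in 12 ski7-/- libraries, against 0 to 23.5 CPM (median 6.97) in 12 WT libraries (poly(A)), and 0 to 0.605 CPM (0 to 3 reads), against 0.651 to 21.2 CPM (median 12.4, rRNA-depleted). The WT library without a psmb5 read was E2 replicate 2 in poly(A), where 3 reads would be 0.207 CPM, and the same replicate had 3 reads in the rRNA-depleted E2 library; apart from it the genotypes did not overlap in embryos. At a single stage the fitted differences were -5.60, -4.66, -5.62 and -5.07 for E1 to E4 in poly(A) libraries and -5.94, -3.86, -6.10 and -5.85 in rRNA-depleted libraries, and all 8 were called. The gene reached 10 CPM in 4 poly(A) and 6 rRNA-depleted embryo libraries, all of them WT. It entered these tests only through the genotype where it is high, so the calls are no support for a difference. As ski7-/- embryos were mostly at or under 3 reads, the size of these fitted differences depends on the prior count and is no bound. Low levels were also seen in 1 WT female among the oocyte donors, and an effect of ski7 and differences between the fish sampled cannot be told apart with 3 sets per genotype.

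**Figure D5:**
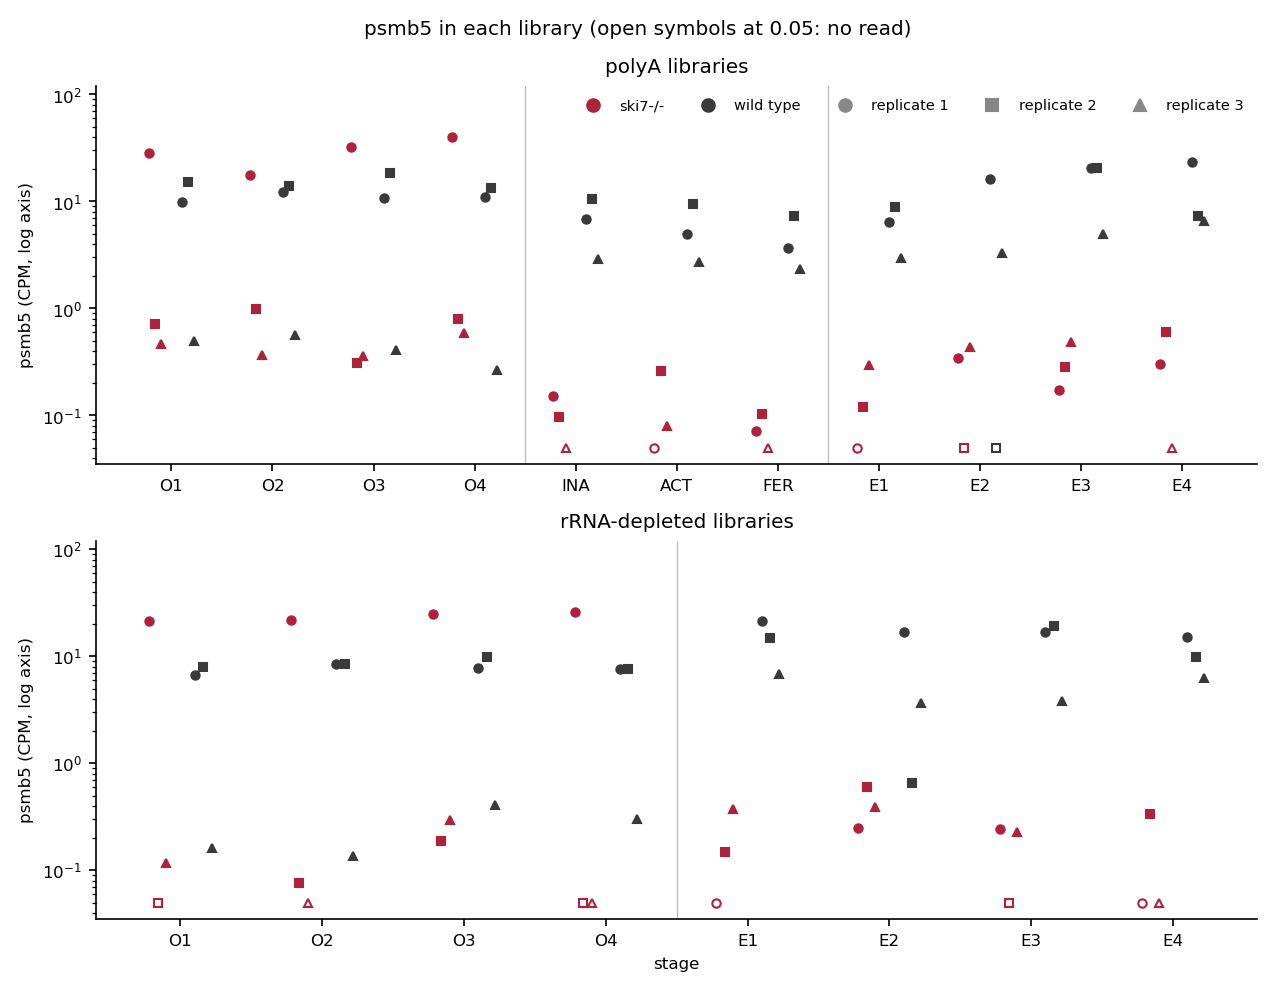
Level of psmb5 in every library, in CPM on a log axis, by stage, with ski7-/- left of WT and 1 symbol shape per replicate; poly(A) libraries above and rRNA-depleted libraries below, open symbols at 0.05 CPM for libraries without a read. In oocytes ski7-/- replicate 1 and WT replicates 1 and 2 are high and the others low, and in eggs and embryos all ski7-/- libraries are at 0.605 CPM or below.

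The genotype effect itself was called different between periods for some genes. In 1 fit over all poly(A) libraries, the effect in eggs exceeded that in oocytes for 16 of 47 genes and was smaller for 7, against 20.5% and 25.8% of all genes, and the effect in embryos exceeded that in eggs for 14 and was smaller for 3, against 19.3% and 15.4%. This fit too treats the stages of a replicate set as independent libraries, so its p-values are too small. With each set reduced to its period mean, 0 of 27 genes were called by genotype in eggs. The rest of the 47 did not reach 10 CPM in 3 or more egg libraries, and few reads limit their egg values. For psma8 the embryo effect exceeded the egg effect by 0.87 and for psma6_019398 by 0.57. Within a period no proteasome gene of either library type had a genotype effect that differed between its last and first stage by edgeR, with 0 to 3 at an unadjusted p under 0.05 and up to 2 called by other fits (0.52% and 0.769% of all genes in poly(A) embryos were called higher or lower, 0.0% in rRNA-depleted embryos, 0.0% in poly(A) oocytes and 0.0197% and 0.00984% in rRNA-depleted oocytes).

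Genes that act with the proteasome were taken from a list of ubiquitin and proteasome factors, of which 26 could be tested across the poly(A) periods. Between INA and O4, 7 were higher and 13 lower with a median of -0.51, against 36.7% and 41.8% of all genes, and between E4 and E1 9 were higher and 9 lower of 23 with a median of 0.07, against 37.7% and 32.6%. The proteasome-bound deubiquitinase genes usp14 and uchl5 moved like most subunits, by -4.10 and -4.06 at INA minus O4 and 3.11 and 1.89 at E4 minus E1, and the small 19S subunit gene sem1 by -3.80 and 2.13. Opposite to them, akirin2, known in human cells for importing proteasomes into the nucleus, moved by 2.21 and -1.30, and ngly1 and ddi2, known for processing the factor that induces proteasome genes, by 2.09 and 2.07 at the first and -0.94 and -0.64 at the second passage. Maturation factor pomp differed by -0.77 and -0.57. By genotype the period mean in embryos called 2 higher (usp14 and nploc4) and 2 lower (zfand5a and rad23ab) of 23 in poly(A) libraries, against 7.98% and 8.45% of all genes, and in rRNA-depleted libraries vcp higher (1.15) and rad23ab lower (-1.01) of 26, against 7.74% and 7.32%.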

How the data were processed

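RNA of ski7-/- and WT oocytes, eggs and embryos was sequenced in 114 libraries, 66 poly(A)-selected and 48 rRNA-depleted, with 3 replicates per group. The authors trimmed single-end reads with bbduk, aligned them with HISAT2 2.1.0 to the GRCz11 genome with Ensembl annotation, counted uniquely mapped reads per gene with HTSeq 0.9.1, and deposited these raw counts per library. Their deposited kallisto 0.43.0 estimates per transcript, with expected counts and TPM, were not used here. Reads placed on no gene (10.7% to 18.5% in poly(A), 12.5% to 29.7% in rRNA-depleted libraries) stayed out of library sizes. Symbols were matched for 28965 of 31466 IDs (92.1%). CPM are raw counts per 1000000 gene-assigned reads. The 3-read floor covers counting error only, and reads carry no molecular identifiers. Values after ± are the SD over libraries or the SE of a fit, and both include variation between replicates.

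Stage, genotype and library-type differences were fitted on counts with edgeR 4.0.16 (quasi-likelihood, TMM scaling; R 4.3.3) over every gene reaching 10 CPM in 3 or more libraries, within each period and library type, with Benjamini-Hochberg adjustment at 0.05; comparisons across periods used all poly(A) libraries. Period means per replicate were compared with limma 3.58.1 (log2 CPM, prior count 2). Scripts were tested on simulated data. Alternatives were DESeq2 1.42.0 size factors and its Wald test, other filters, limma-voom with the replicate set as a random block, replicate blocks, and leaving out each replicate; fits of each stage alone, a block within genotype, the 2-cell to O4 comparison, TMM-scaled sums and leaving out libraries that stood apart were added after seeing the data. Same-numbered ski7-/- and WT libraries did not deviate together (correlation -0.259 to 0.383), so numbers do not pair genotypes; stages of a set did (0.161 to 0.907). Poly(A) and rRNA-depleted libraries of the same genotype, number and stage also deviated together (0.171 to 0.821, median 0.693, 48 pairs). A difference seen in both library types is therefore not seen in independent samples. Where genotypes are said not to overlap, the share of all genes doing so is not given, so this describes values and tests nothing. Whether embryo replicates came from separate clutches is not given in the sources used here.

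Named in full were the catalytic subunits and psmb10, genes called at every stage of a period, and the 2 highest and 2 lowest of each main comparison; other names were chosen after their values were seen. The genes and lists were chosen with earlier results of these data known. Figures were drawn with Python 3.11.15 and matplotlib 3.10.9. No coordinates are given because the annotation at hand was of another build.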

Additional observations from a re-analysis of the deposited data

Results flagged for a closer look

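Among the genes named by rule, 11 gave 12 differences of the genotype effect between periods by a test of the difference itself, the interaction of genotype with period in edgeR over all poly(A) libraries (adjusted p under 0.05), which called 20.5% of all genes as positive and 25.8% as negative between eggs and oocytes, and 19.3% and 15.4% between embryos and eggs. Of all 47 proteasome genes it called 16 and 7, and 14 and 3. It treats the stages of a replicate set as independent libraries, so its p-values are too small. From oocytes to eggs the ski7-/- minus WT effect changed on the log2 scale by 0.72 for psmb1, 1.29 for psmc3ip, 1.51 for psmc6, 0.38 for psmd6 and 0.77 for psmg2, and by -6.22 for psmb5, -0.80 for psme3 and -0.53 for psme4_018742. The psmb5 value sets oocytes, where both genotypes held high and low females, against eggs, where all 9 ski7-/- libraries had 7 reads or fewer. From eggs to embryos the effect changed by 0.57 for psma6_019398, 0.87 for psma8 and 0.96 for psmb10, and by -1.13 for psmc3ip. Few reads in eggs limit several of these values in both lists. There psmc3ip, psmc6 and psmg2 reached 10 CPM in no library and psmb10 in 1. In poly(A) oocytes psmc6 reached it in 12 libraries, all of them WT, so it entered this fit only through WT. In WT FER replicate 1, psmg2 had 0.281 CPM, under the 3-read floor of 0.421 CPM.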

How the results depend on the processing

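Of the values followed for single genes, 320 kept their direction and their side of the threshold, 20 no longer passed, 1 now passed and 1 reversed: psmb6 in rRNA-depleted embryos (period mean, 0.08) ranged from -0.17 without ski7-/- replicate 2 to 0.24 without ski7-/- replicate 3. Counts for INA minus O4, E1 minus O4, E4 minus E1 in poly(A) libraries, library type and genotype by period stayed within 1.5 times of the reported ones under every alternative run. Genotype calls summed over stages depended on the fit. Higher calls in poly(A) embryos (40) were 23 with no filter, 22 by stage alone and 22 to 33 with a replicate left out, and lower calls (11) were 5 with a random block, 3 by stage alone and 5 to 10. In rRNA-depleted embryos higher calls (26) were 13, 5 and 11 to 24 under the same settings as the first, and lower calls (6) 0 by stage alone and 1 to 5. In poly(A) oocytes 3 calls became 10 by the Wald test, 6 with the replicate block, 9 without libraries that stood apart and 2 to 8; in rRNA-depleted oocytes 8 became 15 with the replicate block, 18 with the random block, 4 by stage alone and 4 to 11. In eggs 5 became 3 with no filter, 11 by the Wald test, 15 with the replicate block, 9 with the random block, 0 by stage alone and 0 to 9. Period-mean calls with the replicate block were 3 for 10 in poly(A) and 3 for 12 in rRNA-depleted embryos, 1 for 3 and 0 for 3 in oocytes; with a replicate left out they ranged over 5 to 10, 3 to 7, 0 to 2 and 0 to 3, and 0 to 2 for eggs (0 as reported, 1 with a 1 CPM filter or none); oocytes in poly(A) gave 1 with no filter. O4 minus O1 in poly(A) (4) was 2 with no filter, 7 by the Wald test or the random block, 10 with a block within genotype, 16 without libraries that stood apart and 0 to 14; in rRNA-depleted libraries its 19 lower calls were 9 to 17. E4 minus E1 in rRNA-depleted libraries (2) was 1 with no filter and 0 to 1, and E1 minus FER (20) was 11 to 21. Genotype by stage between E4 and E1 (0) was 1 by the Wald test, 1 with the replicate block, 2 with the random block, 2 with the block within genotype, 1 without libraries that stood apart and 0 to 1. The mean of psme4_018742 in WT INA eggs, 392 CPM, was 645 CPM after TMM scaling, and the summed level of 45 genes in these eggs, 1461 CPM, was 2413 CPM. Except for alternatives that drop samples or genes, the cause was not tested. Because the numbers do not pair genotypes, a call lost under the block is no sign of a weaker effect. Genes with a few reads per library, such as psmb5 in ski7-/- embryos, are limited by depth.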
